A study of Mus musculus with 6 samples.

Results

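PGC-1 coactivators and the factors that build mitochondria were read in microglia from mice with acute ischemic stroke (AIS), through every probe of 10 genes, Ppargc1a, Ppargc1b, Pprc1, Esrra, Esrrg, Nrf1, Gabpa, Tfam, Tfb1m and Tfb2m. The probes were found by their RefSeq accession, whatever their signal, and 21 of the 56605 probes that are not controls were theirs. The arrays had a named probe for 23462 genes in all. Of the 10 genes, 8 had several probes and 2 had a single one. The arrays were Agilent single-colour arrays, with 3 samples of PGC-1α f/f mice (control) and 3 of mPGC-1α mice. All were labelled as microglia of male mice, 10 weeks of age, and the study's methods give a C57BL/6 background. Both groups carried a PGC-1α transgene with an IRES-eGFP tag that Cre recombinase switches on. Only the mPGC-1α mice also carried the tamoxifen-inducible Cx3cr1-Cre/ER, which is driven by a gene that border macrophages and monocytes use as well as microglia. The strain name in the study's methods gives this Cre as a targeted allele of Cx3cr1 itself, so the groups also differed at that gene. Stroke was made in the study by transient occlusion of the middle cerebral artery after tamoxifen, and the cells were selected with a P2RY12 kit. The labels give neither the time after AIS nor whether the samples were separate animals, so the p-values measure the spread between these samples, which may be technical.

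PGC-1α, PGC-1β and PRC, encoded by Ppargc1a, Ppargc1b and Pprc1, do not bind DNA themselves. They are recruited by transcription factors such as the estrogen-related receptors, NRF-1 and GABP, which bind the promoters of nuclear genes for respiratory chain subunits and of the factors that copy and transcribe mitochondrial DNA. Tfam packages mitochondrial DNA and helps to start its transcription, and Tfb2m acts with it at mitochondrial promoters.

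Because several of these genes encode factors that are known to act on promoters of the others, the promoters were searched for the factors' motifs. The RefSeq promoter table for GRCm38.p6, with 250 bases before and 50 bases after each start, held 13 promoters of 9 of the 10 genes. Both strands were searched for TNAAGGTCA (estrogen-related receptors), GCGCANGCG (NRF-1) and CCGGAAG (ETS factors such as GABP). These were held by 1.28%, 6.25% and 8.86% of all 32851 promoters, and by 0, 2 and 2 of the 13. The matches lay in 4 genes and did not overlap one another. They are shown on the strand of the gene with 10 bases on either side and the motif in capitals.
Esrra, NRF-1 motif: acaggaggccGCGCACGCGtgtgtatcga
Tfb2m, NRF-1 motif on the opposite strand: ctaggtcgttCGCATGCGCcattcgtaat
Tfam, ETS motif: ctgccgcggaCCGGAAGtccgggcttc
Gabpa, ETS motif on the opposite strand: agggtaagtgCTTCCGGgtccctcagc
The Esrra window was chr19:6921931-6921959 on the minus strand, with the motif 133 to 141 bases before the start. The Tfb2m window was chr1:179546246-179546274 on the minus strand, with the motif 12 to 20 bases after the start. The Tfam window was chr10:71238075-71238101 on the minus strand, with the motif 41 to 47 bases before the start. The Gabpa window was chr16:84835021-84835047 on the plus strand, with the motif 87 to 93 bases before the start. A match describes the letters of these windows and no more.

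The samples were examined before the genes. Signal was well above background on 71% to 86.5% of spots, and both replicate 3 arrays came from a separate slide, on which 3010 and 4931 spots were marked as outliers by the scanner software against 549 to 1094 on the other arrays. P2ry12 and Tmem119, markers of microglia, were well above background on all 6 arrays. All samples were labelled male, but 1 array matched that label, control 2. Xist, the RNA that coats the inactive X chromosome in females, lay between -0.52 and 0.02 on 5 arrays and at -4.75 on control 2, and Ddx3y, a Y-linked gene, was well above background on control 2 alone. As control 2 thus stood apart from the other arrays, differences of member probes that moved by over 0.1 without it are given both ways. For the pathway genes this was done only for a gene that then passed the test, so others may also depend on control 2. Over all genes, 70.8% of the brightest probes were higher on the mPGC-1α arrays. Markers of neurons were higher there for 18 of 19 tested genes, and the sum of their linear signal relative to the 75th percentile ranged from 49.7 to 82 on the control arrays and from 87.9 to 108 on the mPGC-1α arrays. Oligodendrocyte markers were higher for 15 of 16, with sums of 12.5 to 20.9 against 23 to 39. Astrocyte markers were higher for 12 of 13 with overlapping sums, 32.7 to 58.1 against 41.8 to 102, and microglial markers for 9 of 15, with sums of 246 to 345 against 295 to 433. Monocyte and border macrophage markers were higher for 5 of 15, endothelial and mural for 9 of 11, erythrocyte for 6 of 9 and neutrophil markers for 3 of 8, and in each of these lists the sums of the groups overlapped. By limma, 0 genes of these lists passed the test after adjustment. A fit with the replicate number as a block, a pairing that is not settled, called 4.22% of all probes. Of its 1720 calls, 1269 were lower on the mPGC-1α arrays. In that fit 7 of the neuron, 5 of the oligodendrocyte and 7 of the astrocyte markers passed as higher. As lower, 2 of the microglial, 1 of the monocyte and 2 of the endothelial markers passed. The part of these cell types in the results below was not tested.

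A level below is the log2 intensity of a probe minus the 75th percentile of its array, and a difference is the mean level of the mPGC-1α arrays minus that of the control arrays. Of the 21 probes, 20 were well above background on all 6 arrays and were tested, 0 were saturated and 1 value was marked as an outlier. By limma with Benjamini-Hochberg adjustment over 40745 probes, 0 of the 20 had an adjusted p below 0.05, where the share called over all probes was 0%. At an unadjusted p below 0.05 there was 1 of 20, which was lower on the mPGC-1α arrays, against 6.71% of all probes (3.66% lower and 3.04% higher). The limma adjusted p ran from 0.715 to 0.998. Of the 20 differences, 6 were above 0 and 14 below, with a median of -0.16, where 33.1% of all tested probes were below 0 and their median was 0.15. Of the 19 probes with 6 values, 2 had groups without overlap, both higher on the mPGC-1α arrays, against 10.1% of all probes in either direction and 7.63% in that direction. With the replicate number as a block, 1720 probes (4.22%) had a limma adjusted p below 0.05, and 0 of the 20 member probes, the lowest of which had 0.103. Within same-numbered pairs of arrays, 7 of the 19 probes were lower on the mPGC-1α array in all 3 pairs and 5 were higher in all 3, against 10.9% and 20.3% of all probes. The 7 were both Ppargc1a probes, both Esrrg probes, the dimmer Pprc1 and Tfb2m probes and Nrf1 A_66_P102204. The 5 were the brightest Pprc1, Gabpa and Tfb2m probes, the dimmer Ppargc1b probe and the Esrra probe. On the brightest Ppargc1a probe the replicate 1 pair differed by only -0.03. In these bulk samples, fewer cells of a type and less RNA per cell cannot be told apart.

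**Figure D1:**
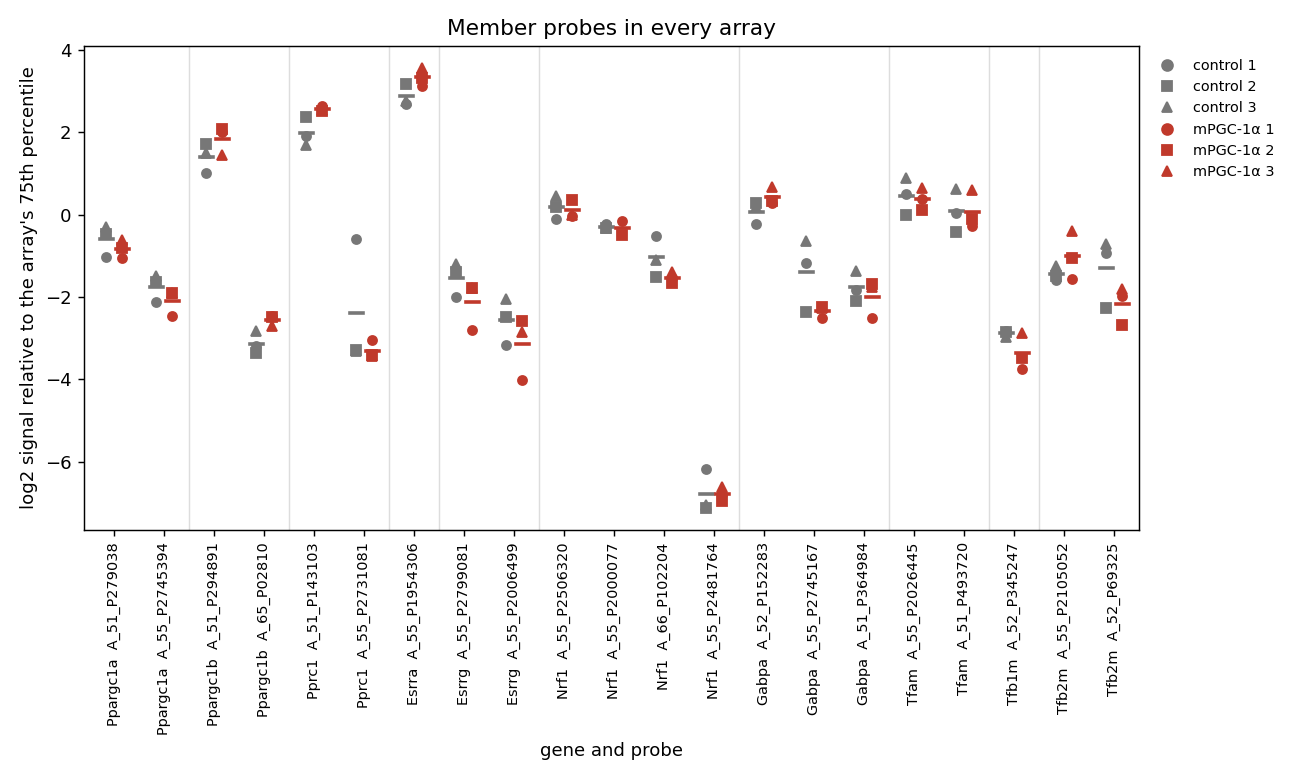
Level of all 21 member probes on each array (y axis, log2 intensity relative to the array's 75th percentile) by gene and probe (x axis). Grey symbols are control arrays, red symbols mPGC-1α arrays, shapes give the replicate and short lines the group means; the dimmest Nrf1 probe is near -7, and for Pprc1 A_55_P2731081 control 1 stands alone at -0.60.

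The coactivators did not move together by sign. Ppargc1a is the gene that the mPGC-1α mice were made to overexpress in microglia, so it is described first. On probe A_51_P279038, its brightest by mean signal, the levels were -1.02, -0.48 and -0.29 in control and -1.05, -0.81 and -0.62 in mPGC-1α. Control 1 lay with the mPGC-1α arrays, and the groups overlapped. The difference was -0.23 (SE 0.30, 95% interval -0.89 to 0.43), a linear ratio of 0.85 with an interval of 0.538 to 1.34, with a limma adjusted p of 0.871 and an exact two-sided permutation p of 0.4, where the smallest that 20 assignments allow is 0.1. On the other probe, A_55_P2745394, the levels were -2.12, -1.64 and -1.50 in control and -2.45, -1.91 and -1.91 in mPGC-1α. The order of the arrays was nearly the same on both probes, with a gap of -1.40 to -1.10 between them, and the second gave a difference of -0.34 (SE 0.31, limma adjusted p 0.838). Neither Ppargc1a probe was higher in mPGC-1α, and the upper end of the interval for the brightest probe was a 1.34-fold higher signal. The study reported higher PGC-1α in mPGC-1α microglia by immunostaining after tamoxifen and by qRT-PCR in cultured neonatal microglia. Those are other samples and measures than these arrays of microglia after stroke. Where the probes lie on the transcript, and whether the transgene's RNA holds their target, was not analysed here, so these probes do not settle the genotype. The difference of the brightest probe was -0.18 on the first slide and -0.34 on the second, and it ranged from -0.45 without control 1 to -0.08 without control 3. Cx3cr1, the gene that drives the Cre, had levels of 4.22, 3.74 and 4.35 in control and 2.82, 2.40 and 3.63 in mPGC-1α on its tested probe A_52_P99810. All mPGC-1α arrays lay below all control arrays there, with a difference of -1.15 (SE 0.33, limma adjusted p 0.573, and 0.000184 with the replicate block). That difference was -1.34 without control 2 (limma adjusted p 0.103). Another Cx3cr1 probe, A_55_P2007964, was well above background on every array but had too few unmarked values to be tested. With marked spots kept, its levels were 3.96, 4.41 and 3.75 in control and 3.57, 3.67 and 3.90 in mPGC-1α, which overlapped. The Cre allele of Cx3cr1 and the active transgene came together in the mPGC-1α mice, so their parts in these values cannot be told apart.

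Ppargc1b encodes PGC-1β, the closest relative of PGC-1α. On probe A_51_P294891 its levels were 1.01, 1.71 and 1.49 in control and 2.00, 2.08 and 1.45 in mPGC-1α. The first pair of mPGC-1α arrays lay above every control array and the third within their range. The difference was 0.43 (SE 0.30, limma adjusted p 0.821), with 0.67 on the first slide and -0.04 on the second. It was 0.24 without control 1 and 0.59 without control 2. The much dimmer probe A_65_P02810, which stands for a predicted transcript, had levels of -3.20, -3.37 and -2.83 in control and -2.45, -2.49 and -2.71 in mPGC-1α. Here all mPGC-1α arrays lay above all control arrays, by 0.58 on average (SE 0.31, limma adjusted p 0.788, exact permutation p 0.1) and by 0.46 without control 2. Both Ppargc1b differences were above 0, and neither passed the test.

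Pprc1 encodes PRC, a coactivator of the same family that is induced when cells enter growth. Its probe A_51_P143103 had levels of 1.91, 2.38 and 1.68 in control and 2.63, 2.51 and 2.53 in mPGC-1α. The mPGC-1α arrays were close together and all above the control arrays. The difference was 0.57 (SE 0.27, 95% interval -0.02 to 1.16), a linear ratio of 1.48, with a limma adjusted p of 0.754 and the smallest exact permutation p, 0.1. It was 0.43 on the first slide, 0.85 on the second and 0.76 without control 2 (limma adjusted p 0.177). The other Pprc1 probe, A_55_P2731081, is annotated to another transcript and had levels of -0.60, -3.29 and -3.31 in control and -3.05, -3.41 and -3.43 in mPGC-1α. Control 1 alone stood high there, with a signal of 762 units against 58.7 to 89.1 on the other arrays. The difference of -0.90 (SE 0.59, limma adjusted p 0.819) rested on that array and was 0.00 without it, while it was -1.34 without control 2.

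Among the estrogen-related receptors, orphan nuclear receptors that bind PGC-1 coactivators directly, Esrra (ERRα) is itself a known target of PGC-1α. Its single probe, A_55_P1954306, had levels of 2.69, 3.17 and 2.75 in control and 3.13, 3.31 and 3.56 in mPGC-1α. Control 2 lay above mPGC-1α 1, and the other control arrays lay below all mPGC-1α arrays. The difference was 0.47 (SE 0.26, 95% interval -0.10 to 1.03, limma adjusted p 0.795, exact permutation p 0.2), and 0.62 without control 2 (limma adjusted p 0.273). Esrrg (ERRγ), a receptor known from tissues with high oxidative demand such as heart, muscle and brain, gave values of the opposite sign. Its probe A_55_P2799081 had levels of -2.00, -1.40 and -1.21 in control and -2.81, -1.79 and -1.77 in mPGC-1α. Replicate 1 was the lowest of its group in both groups, and control 1 lay below mPGC-1α 2 and 3. The difference was -0.58 (SE 0.37, limma adjusted p 0.814). The second Esrrg probe, A_55_P2006499, gave -3.16, -2.49 and -2.05 in control and -4.01, -2.59 and -2.84 in mPGC-1α. It followed the first, with the same difference of -0.58 (SE 0.42, limma adjusted p 0.828) and a gap to the first of -1.20 to -0.80. Both rested in part on replicate 1, with -0.24 and -0.15 without mPGC-1α 1 and -0.82 and -0.88 without control 1.

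**Figure D2:**
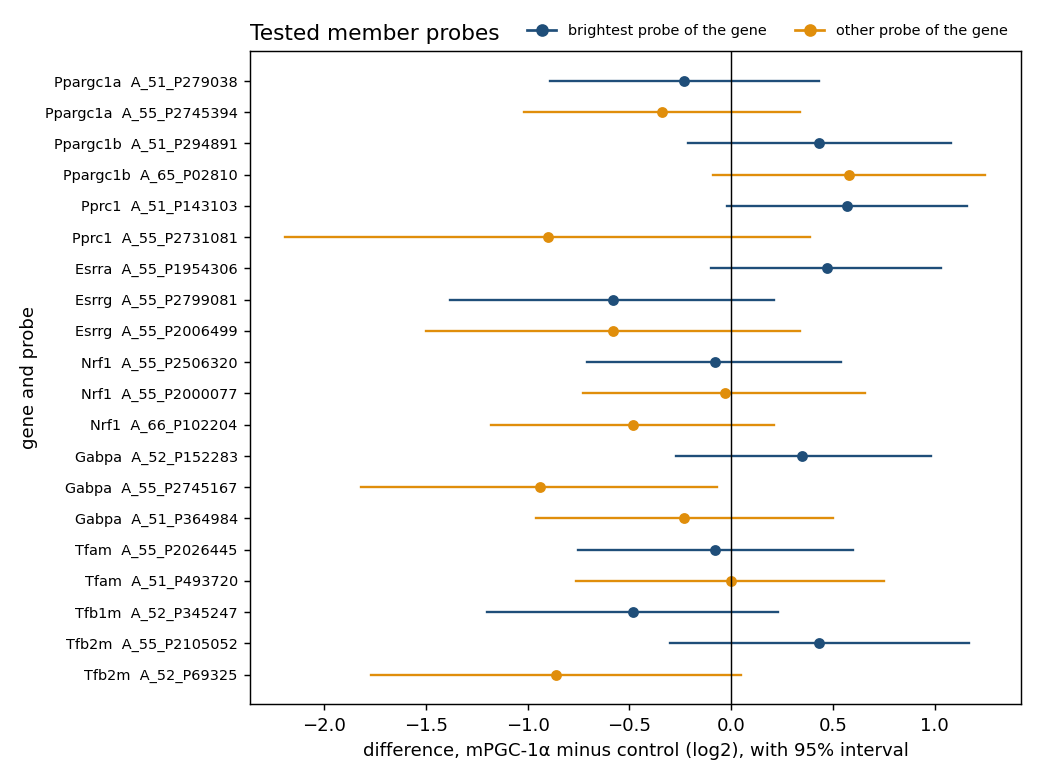
Difference between the groups (x axis, mPGC-1α minus control, log2) for the 20 tested member probes (y axis), as points with 95% intervals from limma; blue marks the brightest probe of a gene and orange its other probes. Of the 20 intervals, only that of Gabpa A_55_P2745167, -1.82 to -0.07, leaves out 0, before any adjustment for the number of probes.

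Nrf1 encodes NRF-1, which drives nuclear genes of the respiratory chain and Tfam. Its brightest probe, A_55_P2506320, had levels of -0.10, 0.19 and 0.46 in control and -0.04, 0.36 and -0.02 in mPGC-1α, with the mPGC-1α arrays inside the control range. The difference was -0.08 (SE 0.29, 95% interval -0.71 to 0.54, limma adjusted p 0.947). Probe A_55_P2000077 had levels of -0.23, -0.32 and -0.33 in control and -0.16 and -0.49 on mPGC-1α 1 and 2. Its spot on mPGC-1α 3 was marked as an outlier and left out, and the difference from the other 5 arrays was -0.03 (SE 0.32, limma adjusted p 0.981). Probe A_66_P102204 gave -0.52, -1.51 and -1.10 in control and -1.54, -1.65 and -1.39 in mPGC-1α. Control 2 lay among the mPGC-1α arrays and the other control arrays above them, for a difference of -0.48 (SE 0.32, limma adjusted p 0.82). It was -0.22 without control 1 and -0.71 without control 2 (limma adjusted p 0.23). The fourth probe, A_55_P2481764, was well above background on 1 of the 6 arrays (control 1) and was not tested. The 4 probes are annotated to different Nrf1 transcripts.

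Gabpa encodes the DNA-binding subunit of GABP, also called NRF-2, and its probes disagreed in sign. On the brightest, A_52_P152283, the levels were -0.24, 0.28 and 0.18 in control and 0.27, 0.33 and 0.68 in mPGC-1α. Control 2 lay just above mPGC-1α 1, and the difference was 0.35 (SE 0.29, limma adjusted p 0.828), or 0.46 without control 2. Probe A_55_P2745167 had levels of -1.17, -2.37 and -0.64 in control and -2.50, -2.25 and -2.26 in mPGC-1α. The mPGC-1α arrays were close together, control 2 lay among them and control 1 and 3 lay above. Of the member probes it had the smallest unadjusted limma p, 0.037, and a difference of -0.94 (SE 0.40), but its adjusted p was 0.715 and its exact permutation p 0.3. Without control 2 the difference was -1.43 (SE 0.27, limma adjusted p 0.0216), the single member call under any alternative, in a fit that called 1555 probes (3.96%). Without control 3 it was -0.57. Probe A_51_P364984 gave -1.82, -2.10 and -1.37 in control and -2.52, -1.69 and -1.76 in mPGC-1α. These overlapped widely, with a difference of -0.23 (SE 0.34, limma adjusted p 0.882), or -0.40 without control 2 and 0.03 without mPGC-1α 1. The 3 Gabpa probes share 1 accession.

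Tfam showed the smallest differences of the mitochondrial DNA factors. On A_55_P2026445 its levels were 0.50, -0.01 and 0.90 in control and 0.39, 0.12 and 0.65 in mPGC-1α. In both groups replicate 3 was the highest and replicate 2 the lowest. The difference was -0.08 (SE 0.31, 95% interval -0.75 to 0.60, limma adjusted p 0.956). The second Tfam probe, A_51_P493720, had levels of 0.03, -0.42 and 0.62 in control and -0.28, -0.10 and 0.60 in mPGC-1α. Its groups covered nearly the same range, and its difference was 0.00 (SE 0.35, 95% interval -0.76 to 0.75, limma adjusted p 0.998). Neither Tfam probe differed between the groups by more than the spread within them. The differences were -0.31 and -0.25 without control 2, and 0.14 and 0.27 without control 3.

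Tfb1m is an rRNA methyltransferase of mitochondrial ribosomes, and its relative Tfb2m is a core initiation factor of mitochondrial transcription. Tfb1m, on probe A_52_P345247, had levels of -2.83, -2.86 and -2.97 in control and -3.74, -3.49 and -2.87 in mPGC-1α. The control arrays were close together, and mPGC-1α 3 lay among them while the other two lay below. The difference was -0.48 (SE 0.33, limma adjusted p 0.821), with -0.77 on the first slide and 0.09 on the second, and -0.73 without mPGC-1α 3 and -0.30 without mPGC-1α 1. On its brightest probe, A_55_P2105052, Tfb2m had levels of -1.58, -1.50 and -1.24 in control and -1.56, -1.06 and -0.39 in mPGC-1α. The mPGC-1α arrays spread widely, from the bottom of the control range to above it, and the difference was 0.43 (SE 0.34, limma adjusted p 0.828). It was 0.13 without mPGC-1α 3 and 0.71 without mPGC-1α 1. Its other probe, A_52_P69325, gave -0.92, -2.26 and -0.71 in control and -1.98, -2.68 and -1.80 in mPGC-1α. Control 1 and 3 lay above the rest, and the difference had the opposite sign, -0.86 (SE 0.42, limma adjusted p 0.765), and -1.34 without control 2 (limma adjusted p 0.0571). Without control 3 it was -0.56, and without mPGC-1α 2 it was -0.59. In the control arrays alone A_52_P69325 was the brighter Tfb2m probe, with a mean of -1.30 against -1.44. Both Tfb2m probes carry the same accession.

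Probes of one gene were then set against each other on each array, as the gap between another probe and the brightest. A shift that is equal for all probes of an array cancels in this gap, but one that changes with the signal does not. For Ppargc1a, Esrrg and Tfam the probes ran in parallel, with a Pearson r over the 6 arrays of 0.94, 0.98 and 0.88. The r was 0.61 for Ppargc1b, -0.45 for Pprc1 and -0.16 for Tfb2m. Gabpa A_55_P2745167 and A_51_P364984 had -0.58 and -0.04 with the brightest probe. For Nrf1, A_66_P102204 had -0.32, and A_55_P2000077 had -0.77 over the 5 arrays with a value. For Gabpa A_55_P2745167 the gap was -0.93, -2.65 and -0.82 in control and -2.77, -2.59 and -2.94 in mPGC-1α. For Tfb2m it was 0.65, -0.76 and 0.53 in control and -0.42, -1.62 and -1.41 in mPGC-1α. In both genes control 1 and 3 stood above every mPGC-1α array and control 2 did not, so the groups overlapped. Within same-numbered pairs the Tfb2m gap was lower on the mPGC-1α array in all 3, and the Gabpa gap in 2 of 3. For Pprc1 the gap was -2.51 on control 1 and -5.96 to -4.99 on the other arrays. By sign, 5 of the 10 brightest probes and 9 of the 10 other tested probes had a difference below 0. Over all genes these shares were 29.2% of 18222 brightest probes and 52.6% of 8004 other tested probes. Among those other tested probes, 13.3% had an unadjusted p below 0.05, against 1 of the 10 here. The brightest probe was taken by the mean over both groups, so the rank can depend on the difference itself. It did for Tfb2m, where the control arrays alone give the other order.

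**Figure D3:**
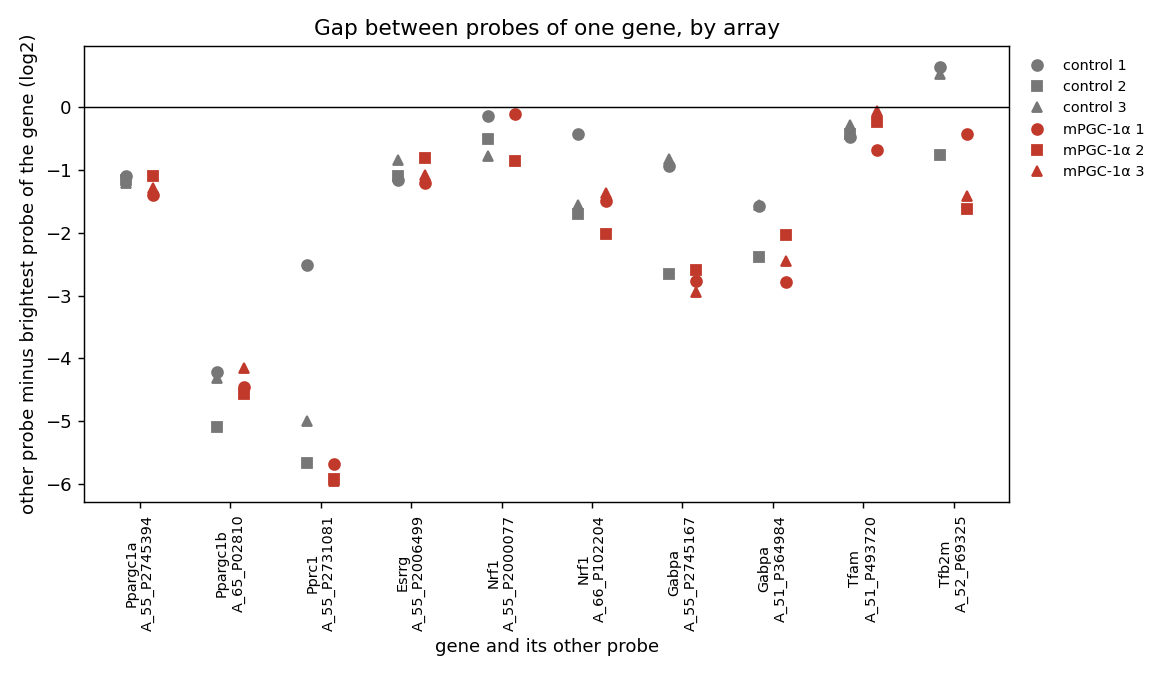
Gap between each other tested probe and the brightest probe of the same gene (y axis, log2) for the 10 pairs (x axis) on every array, with control arrays in grey and mPGC-1α arrays in red. Points of a pair at one height mean probes that run in parallel, as for Ppargc1a; the gaps of Gabpa A_55_P2745167 and Tfb2m on control 1 and 3 lie above all mPGC-1α arrays.

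The genes whose pattern was most like that of Ppargc1a were looked for among 16205 other genes, by Pearson r over the 6 arrays between brightest probes, as a description. They were 4631405J19Rik with an r of 0.998, Pip4p2 with 0.991 and Gzme with 0.987. Among the members, Esrrg had an r of 0.879 and rank 364, Nrf1 0.701 and Tfb1m 0.510. Gabpa, Tfb2m and Tfam had 0.336, 0.298 and 0.266, Esrra 0.005, Ppargc1b -0.056 and Pprc1 -0.400. The points share their arrays and the 75th percentile of each, and the replicate 1 arrays were the lowest of their group for Ppargc1a and the 3 genes most like it.

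Other genes of the pathway were taken from 4 lists of nuclear genes, with 96 tested genes, each by its brightest tested probe. Of these, 0 had a limma adjusted p below 0.05 and 4 an unadjusted p below 0.05, where the shares over all genes were 0% and 5.41%. Among partner transcription factors of PGC-1 coactivators, 17 of 22 differences were above 0, with a median of 0.21, where 70.8% of all genes were above 0 and their median was 0.17. The smallest p-values of that list were those of Foxo1, a factor that works with PGC-1α in gluconeogenesis (difference 0.57, SE 0.28), Gabpb2, a partner subunit of GABPα (0.46, SE 0.30), and Yy1, a zinc finger factor (0.40, SE 0.27), with limma adjusted p of 0.764 to 0.821.

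Regulators upstream of PGC-1α had 21 of 25 differences above 0 and a median of 0.28, beside the 70.8% and 0.17 of all genes. Camk4, a calcium-dependent kinase that acts on CREB and is known from neurons, had levels of -2.08, -1.64 and -1.62 in control and -0.93, 0.23 and -1.17 in mPGC-1α. The groups did not overlap, and the difference was 1.15 (SE 0.38, limma adjusted p 0.577). Fbxw7, the substrate receptor of a ubiquitin ligase that marks PGC-1α for degradation, had levels of 0.25, 0.39 and 0.35 in control and 2.11, 0.58 and 1.12 in mPGC-1α. The control arrays lay close together and below every mPGC-1α array, by 0.94 on average (SE 0.36, limma adjusted p 0.639). Crtc1, a coactivator of CREB, gave 0.67 (SE 0.29, limma adjusted p 0.716), also without overlap. With the replicate block, Camk4 and Fbxw7 passed the test (limma adjusted p 0.016 and 0.0353), as the only 2 of the 96 genes in a fit that called 4.22% of all probes. The sums of neuronal markers given above were also higher on all mPGC-1α arrays, and their part in these differences was not tested.

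In the list for maintenance and transcription of mitochondrial DNA, 16 of 24 differences were above 0, with a median of 0.12. Polrmt, the mitochondrial RNA polymerase that Tfam and Tfb2m work with, had levels of -0.41, -0.25 and -0.53 in control and -0.02, -0.17 and 0.63 in mPGC-1α. The groups did not overlap, and the difference was 0.54 (SE 0.30, limma adjusted p 0.798). Twnk, the mitochondrial DNA helicase, lay at -0.58 (SE 0.33), and Exog, a mitochondrial nuclease, at -1.06 (SE 0.54, limma adjusted p 0.782). Exog was at -4.86 on control 2 and at -2.77 and -2.68 on the other control arrays, and without control 2 its difference was -1.77 (limma adjusted p 0.032), the only call among these genes in a fit that called 3.96% of all probes. Of 28 nuclear genes known as targets of NRF-1, GABP or the estrogen-related receptors, 25 were tested and 18 had a difference above 0, with a median of 0.19, and both lists were near the share and median of all genes. Idh3a, a subunit of a citric acid cycle dehydrogenase, had levels of 0.54, 0.37 and 1.13 in control and -0.53 and -0.08 on mPGC-1α 1 and 2, and was marked on the third. Its difference was -0.98 (SE 0.35, limma adjusted p 0.611). Atp5a1, a subunit of ATP synthase with a marked spot on the same array, gave -0.72 (SE 0.39). Ulk1, a kinase that starts autophagy, gave 0.57 (SE 0.33, limma adjusted p 0.805), with its spot on control 3 marked and left out. Of the 15 genes encoded by mitochondrial DNA on a further list, 0 could be matched to a named probe, so they were not analysed here.

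**Figure D4:**
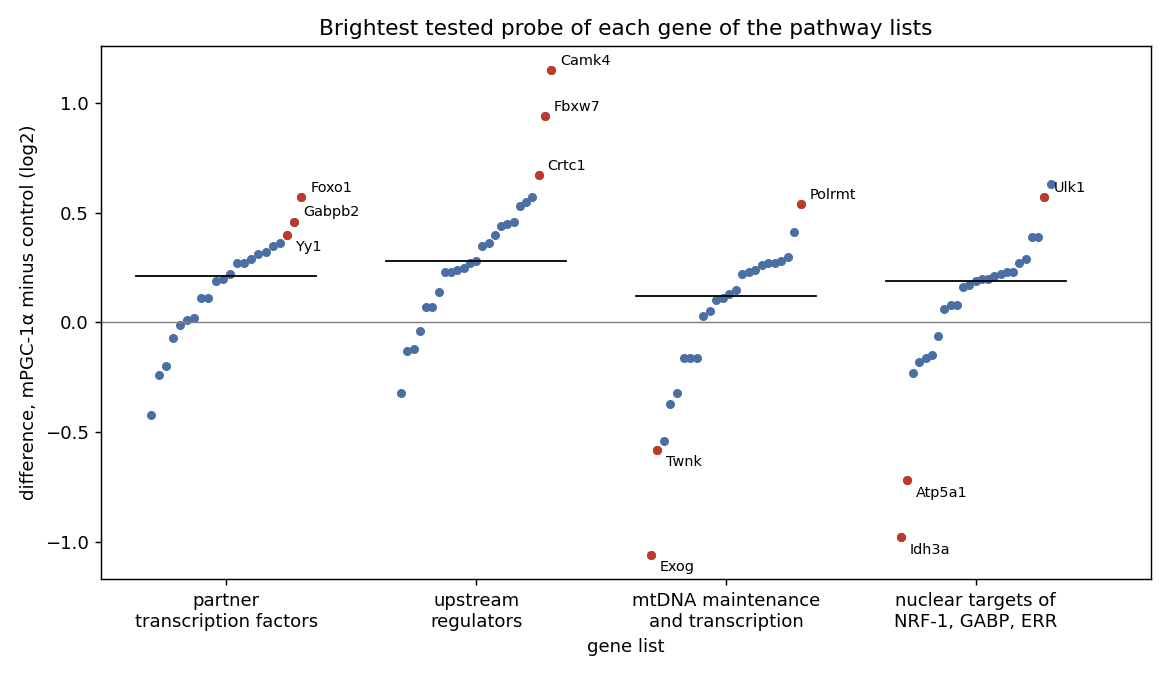
Difference between the groups (y axis, mPGC-1α minus control, log2) for the brightest tested probe of the genes of 4 pathway lists (x axis), ordered by value within a list; black lines are list medians (0.21, 0.28, 0.12 and 0.19), and red points are the 3 genes of a list with the smallest unadjusted p. Most points lie above 0, as do those of all genes, and none passed the test after adjustment.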

How the data were processed

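Intensity values on a linear scale were deposited by the authors for every spot, from Agilent Feature Extraction 11.5.1.1, as a processed signal with the background subtracted and no normalization between arrays, beside raw signals and flags. The authors' series matrix holds log2 values from GeneSpring, which correlated with the scanner values of the same array at an r of at least 0.999 across probes, and served as an alternative. The labels name Cy3 in one field and Cy5 in another, and the files hold 1 green channel. From the processed intensity, log2 minus the array's 75th percentile was computed in R 4.3.3. Outlier-marked spots were left out and replicate spots averaged. Testing required, in 1 group, signal well above background on every unmarked array (at least 2), and at least 2 values per group. Groups were compared with limma 3.58.1 (lmFit, eBayes with an intensity trend, two-sided), adjusted over all 40745 tested probes at a threshold of 0.05. The procedure was tested on simulated data. Probes were named through RefSeq accessions (33767 of 56605), and probe sequences were not used here.

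The members and gene lists were chosen with earlier results of these data known. All member probes were named, and from each list the 3 genes with the smallest unadjusted p. In the list of nuclear targets, 3 names were matched as synonyms. The alternatives were quantile normalization, normexp (offset 50) on the median spot signal, the series matrix, no filter or a stricter one, outlier spots kept, slide and replicate blocks, no trend and leaving out each array. To see whether replicate numbers pair the samples, array deviations from the group means were correlated. The r was 0.25, 0.22 and 0.17 for the same number and -0.34 to 0.03 for different numbers. These values depend on one another, as deviations cancel within a group, and both replicate 3 arrays share a slide, so they do not settle the pairing. The main fit, which gave the member values above, is unpaired, and the replicate block is an alternative beside it. Precision is limited by the 3 arrays in each group.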

Additional observations from a re-analysis of the deposited data

How the results depend on the processing

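Over 15 alternatives, 287 of 297 differences of member probes kept their direction and their side of the threshold, and 15 of the 20 probes reversed under none. Ppargc1a A_51_P279038 lay between -0.31 and -0.17 under other processing and between -0.45 and -0.08 when an array was left out. Nrf1 A_55_P2000077 reversed to 0.16 in the authors' series matrix and to 0.13 with outlier spots kept, where the marked spot counts. Leaving out an array reversed probes near 0, with ranges of -0.40 to 0.03 for Gabpa A_51_P364984, -0.23 to 0.05 for Nrf1 A_55_P2506320, -0.27 to 0.27 for Tfam A_51_P493720 and -0.31 to 0.14 for Tfam A_55_P2026445. The count of all probes called was 0, but 1 without a filter, 1 with the stricter filter, 1720 with the replicate block that pairs same-numbered arrays, and 0 to 1555 when an array was left out (1555 without control 2, 699 without mPGC-1α 1 and 2 without control 3). Member probes called numbered 0 to 1 when an array was left out. Pathway genes called numbered 2 with the replicate block and 0 to 1 when an array was left out. The replicate block changed no call of a member probe. Its lowest limma adjusted p were 0.103 for Gabpa A_55_P2745167, 0.14 for Tfb2m A_52_P69325 and 0.207 for Pprc1 A_55_P2731081, all lower in mPGC-1α. Next came 0.244 for Pprc1 A_51_P143103, which was higher. The cause of these shifts was not tested. With 3 arrays a group, the standard errors of member differences were 0.26 to 0.59. In all 8 genes with several probes, each dimmer tested probe had a larger one than the brightest. In Ppargc1a it was 0.31 against 0.30, and in Pprc1 0.59 against 0.27.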
